A study of Mus musculus with 4 samples.

Results

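The transcription factor p53 and a set of genes it is known to switch on were followed through single cells of dystrophic mouse muscle that had received CRISPR in lipid nanoparticles. The set held Trp53, which encodes p53, and 9 of its known targets: Mdm2, Cdkn1a, Ccng1, Plk2, Bax, Phlda3, Eda2r, Zmat3 and Gdf15. Members were matched by gene symbol, as genes known to belong to the pathway, and the choice was made with earlier results of these data known. All 10 were found among the 32285 mouse genes of the count matrices. The cells came from skeletal muscle of a DMD mouse model, in which muscle wastes as it does in Duchenne muscular dystrophy for want of dystrophin. Cells of 2 preparations were taken after each treatment, so that the 4 libraries were LNP-CRISPR bulk, vehicle bulk, LNP-CRISPR kit and vehicle kit, where kit stands for a satellite cell isolation kit. All groups share the DMD background. The labels used here name no strain, age, dose, time after injection or guide, and do not say how many animals were pooled, so nothing in them ties a library to 1 animal. Each group is 1 library, so no test was possible, and every interval below is an exact 95% interval that covers counting error only.

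p53 is kept scarce in healthy cells because Mdm2, the product of one of its own targets, marks it for destruction. DNA breaks, which Cas9 makes by design, stabilise the protein, and p53 then raises transcription of genes that stop the cell cycle, repair DNA or start cell death. This stabilisation acts on the protein, so Trp53 RNA need not move with p53 activity.

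The 4 libraries held 6512 barcodes, of which 5651 were kept, and between 25921795 and 40666916 unique molecular identifiers (UMIs, each standing for 1 captured RNA molecule) per library. Median UMIs per kept cell were 16042 in LNP-CRISPR bulk and 22270 in vehicle bulk, and 10312 in LNP-CRISPR kit and 8627 in vehicle kit. Pairs of libraries shared 0 to 3 barcodes. Cas9 RNA was counted as an added feature, with 36382 UMIs in LNP-CRISPR bulk, 10351 in LNP-CRISPR kit and 0 in both vehicle libraries, which matched the labels. Cells were clustered and the clusters named by marker genes, with "-like" added because the names rest on markers alone. Bulk libraries were led by fibro-adipogenic progenitor (FAP)-like cells, the connective tissue progenitors of muscle, with 440 cells in LNP-CRISPR bulk and 664 in vehicle bulk. The kit libraries carry the label satellite cells, the stem cells of muscle, but only 607 of 1899 kept cells in LNP-CRISPR kit and 534 of 1404 in vehicle kit were myogenic-like. The rest were mainly glial-like, fibre-like and pericyte or smooth muscle-like cells. Levels are given as CPM, the summed UMIs of a gene over the cells of a class per 1000000 nuclear-encoded mouse UMIs.

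The stretches of promoter that hold a letter match to the p53 half-site, the decamer that p53 binds in pairs, are shown because they place the targets beside the factor the comparison is about. RefSeq promoter windows on GRCm38.p6, each running from 250 bases before to 50 bases after a transcription start, were found for 9 of the 10 members. The 9 members had 11 windows. A half-site match lay in 5 of these, 1 window each of Cdkn1a, Ccng1, Bax, Mdm2 and Trp53, while 2745 of 32851 windows of all genes (8.36%) held one. A pair of half-sites with at most 1 mismatch and at most 13 bases between them lay in the windows of 3 members, Cdkn1a, Ccng1 and Bax, and in 359 of all windows (1.09%). Capitals mark the matched site, and each sequence runs 5′ to 3′ on the strand of the gene, upstream of its first exon. The Cdkn1a stretch is chr17:29090908-29090967 on the plus strand, and its site lies 51 to 32 bases before the start of that window's transcript. Cdkn1a has another, downstream start, whose window at chr17:29093519-29093818 held no match. The Ccng1 stretch is chr11:40755442-40755501 on the minus strand, and its site lies 195 to 176 bases before the start. The Bax stretch is chr7:45467070-45467130 on the minus strand, and its site lies 212 to 192 bases before the start. The Mdm2 stretch is chr10:117710915-117710964 on the minus strand, with a single half-site 186 to 177 bases before the start. The Trp53 stretch is chr11:69580264-69580313 on the plus strand, with a single half-site 75 to 66 bases before the start. A match is a run of letters and does not show binding in these cells.
Cdkn1a: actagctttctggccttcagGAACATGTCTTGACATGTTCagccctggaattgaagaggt
Ccng1: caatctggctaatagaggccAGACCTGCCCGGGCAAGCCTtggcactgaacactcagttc
Bax: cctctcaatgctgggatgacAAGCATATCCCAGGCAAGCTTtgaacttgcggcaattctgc
Mdm2: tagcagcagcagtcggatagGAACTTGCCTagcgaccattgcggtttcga
Trp53: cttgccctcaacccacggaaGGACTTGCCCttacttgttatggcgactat

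The members did not share 1 pattern over cell types, and several stood highest in different classes. Cdkn1a was highest in glial-like cells, Ccng1 in fibre-like barcodes, Gdf15 and Mdm2 in macrophage or monocyte-like cells, and Plk2 and Trp53 in myogenic-like cells. These positions held in LNP-CRISPR and vehicle libraries alike, with the exceptions given below. Levels are given for named classes with at least 20 cells in a library, and are not compared between genes, because 3′ UMIs are not scaled for how well each transcript is captured.

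**Figure D1:**
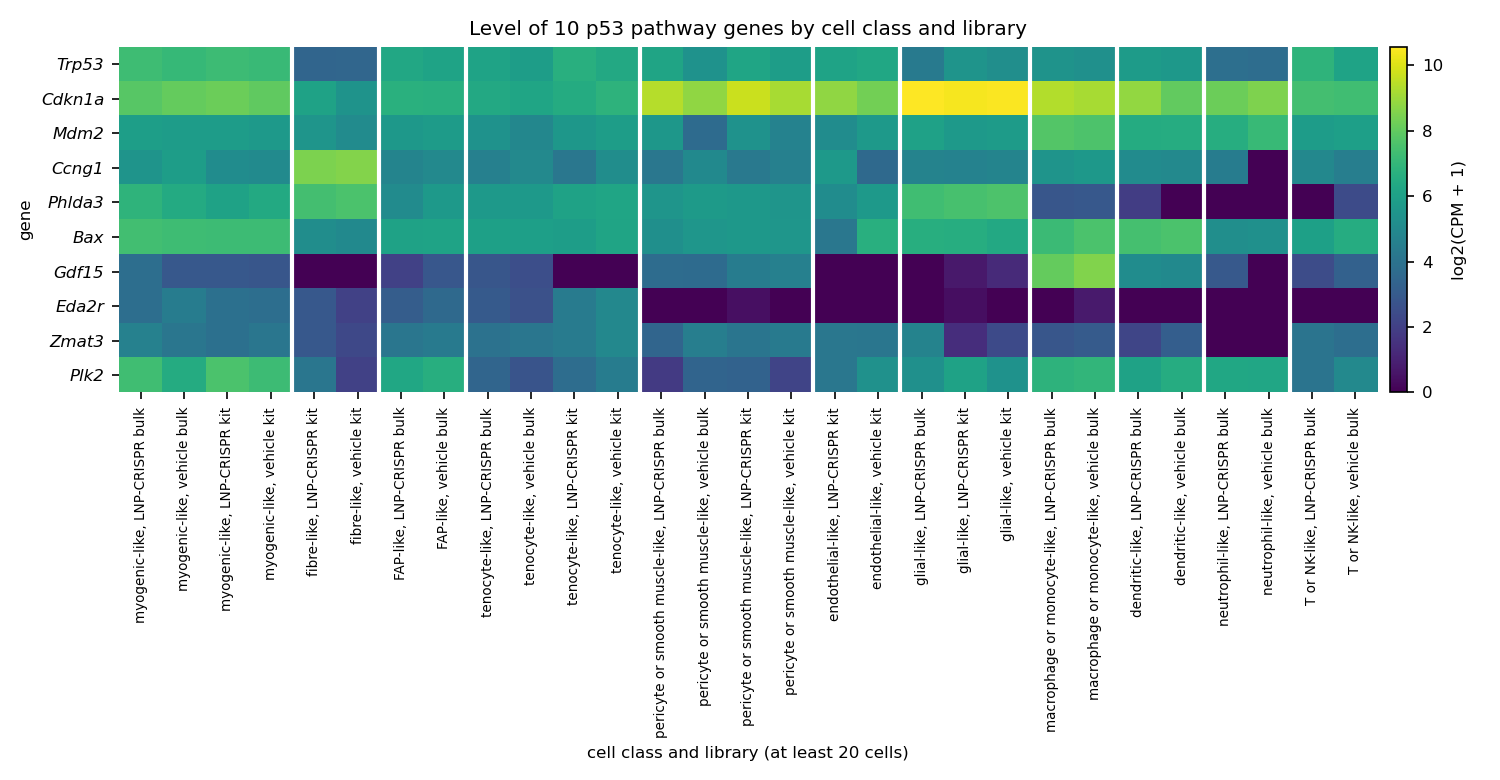
Heat map of log2(CPM + 1) for the 10 members (rows) in each cell class and library (columns, LNP-CRISPR left of vehicle). Cdkn1a reaches 1508 CPM in glial-like cells of LNP-CRISPR bulk, Ccng1 stands out in fibre-like barcodes and Gdf15 in macrophage or monocyte-like cells, while Eda2r and Zmat3 are low throughout.

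Trp53 had 155 CPM in LNP-CRISPR bulk and 135 CPM in vehicle bulk in myogenic-like cells, and 149 and 143 CPM in the LNP-CRISPR and vehicle kit libraries. The spread over the 4 libraries was therefore small in this class, which includes satellite cells and their dividing progeny. Myogenic-like cells were the top class in every library, although in LNP-CRISPR bulk their interval overlapped that of T or NK-like cells at 117 CPM. Fibre-like barcodes had 9.87 CPM in LNP-CRISPR kit and 10.1 CPM in vehicle kit, and neutrophil-like cells had 13.6 CPM in LNP-CRISPR bulk and 12.7 CPM in vehicle bulk, the lowest levels of Trp53. FAP-like cells stood between these, at 80.1 CPM in LNP-CRISPR bulk and 68.1 CPM in vehicle bulk.

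Mdm2, the ubiquitin ligase that degrades p53, had 209 CPM in macrophage or monocyte-like cells of LNP-CRISPR bulk and 197 CPM in those of vehicle bulk. Neutrophil-like cells came next, with 94.9 CPM in LNP-CRISPR bulk and 139 CPM in vehicle bulk, where the interval overlapped that of the macrophage class. In the kit libraries the Mdm2 intervals of neighbouring classes overlapped throughout, with levels of 34.2 to 56.8 CPM in LNP-CRISPR kit and 24.7 to 58.6 CPM in vehicle kit.

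Cdkn1a encodes p21, an inhibitor of cyclin-dependent kinases that halts the cell cycle. Glial-like cells had 1508 CPM of Cdkn1a in LNP-CRISPR bulk, 2.26-fold above the next class, and 1365 CPM in LNP-CRISPR kit and 1448 CPM in vehicle kit. Pericyte or smooth muscle-like cells followed, with 667 CPM in LNP-CRISPR bulk, 447 CPM in vehicle bulk, 830 CPM in LNP-CRISPR kit and 582 CPM in vehicle kit. In LNP-CRISPR bulk the interval of this class overlapped that of macrophage or monocyte-like cells at 640 CPM. Dendritic-like cells had 456 CPM in LNP-CRISPR bulk and 262 CPM in vehicle bulk. Neutrophil-like, myogenic-like and T or NK-like cells formed a run of overlapping neighbours in LNP-CRISPR bulk, at 289, 225 and 167 CPM. Vehicle bulk held too few glial-like cells to set a level, and its top class was macrophage or monocyte-like, at 586 CPM. FAP-like and tenocyte-like cells were at the low end of the bulk order, with 104 and 81.9 CPM in LNP-CRISPR bulk and 100 and 73.2 CPM in vehicle bulk.

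Ccng1, which encodes cyclin G1, had 356 CPM in fibre-like barcodes of LNP-CRISPR kit and 389 CPM in those of vehicle kit. No other named class passed 57.6 CPM in any library, and the unnamed cluster had 28.1 CPM in LNP-CRISPR kit and 77.9 CPM in vehicle kit, from 7 and 17 UMIs. Fibre-like barcodes were 6.95-fold above the next class in LNP-CRISPR kit and 11.1-fold above it in vehicle kit. Plk2, a polo-like kinase of the centriole cycle, had 188 CPM in myogenic-like cells of LNP-CRISPR kit and 152 CPM in those of vehicle kit. In bulk it had 160 CPM in LNP-CRISPR and 89.5 CPM in vehicle myogenic-like cells. Macrophage or monocyte-like cells, at 124 CPM, stood above the myogenic-like class in vehicle bulk alone. Tenocyte-like and pericyte or smooth muscle-like cells were among the low classes for Plk2, with at most 20.5 CPM in any library.

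Bax, which opens the outer mitochondrial membrane in apoptosis, had 173 CPM in dendritic-like cells of LNP-CRISPR bulk and 187 CPM in those of vehicle bulk. Macrophage or monocyte-like cells had 145 and 191 CPM in those libraries. Neighbours in the bulk order of Bax overlapped down to the lowest class, neutrophil-like cells, at 36.2 CPM in LNP-CRISPR bulk and 38.01 CPM in vehicle bulk. Phlda3, a membrane-binding repressor of Akt kinase signalling, was shared by glial-like cells, with 176 CPM in LNP-CRISPR kit and 193 CPM in vehicle kit, and fibre-like barcodes, with 167 and 187 CPM in those libraries. Blood-derived classes had almost none of it, and neutrophil-like cells had 0 UMIs of Phlda3 in both bulk libraries. Eda2r, a receptor of the tumour necrosis factor receptor family for the ligand ectodysplasin A2, had more than 2 UMIs in 4 of the named classes only, the myogenic-like, FAP-like, tenocyte-like and fibre-like ones. Its highest level was 29.3 CPM, in 24 tenocyte-like cells of vehicle kit. Zmat3, an RNA-binding zinc finger protein, also stayed at or below 29.3 CPM in all classes and libraries.

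Gdf15, a secreted stress hormone of the TGF-β family, had 269 CPM in macrophage or monocyte-like cells of LNP-CRISPR bulk and 379 CPM in those of vehicle bulk. Dendritic-like cells were next in both, at 34.0 CPM in LNP-CRISPR bulk and 31.2 CPM in vehicle bulk, which put the macrophage class 7.91-fold and 12.2-fold above its neighbour. In the kit libraries, where blood cells were rare, pericyte or smooth muscle-like cells led with 20.9 CPM in LNP-CRISPR kit and 23.0 CPM in vehicle kit. Fibre-like barcodes had 0 UMIs of Gdf15 in both kit libraries.

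The likeness of these patterns was measured over 18 pairs of class and library with at least 50 cells, which share libraries and depth. Spearman's rho of log2(CPM + 1) was highest between Bax and Plk2 (0.75) and between Mdm2 and Plk2 (0.73) among the members, and was -0.03 between Trp53 and Cdkn1a. Phlda3 and Gdf15 ran most nearly opposite, at -0.68. The genes outside the set most like each member were then taken from 10674 genes. Cdkn1a was followed most closely by Spsb2 (rho 0.96), St6gal1 (0.90) and Phf23 (0.90). Trp53 was followed by Snhg16 (0.94), Srpk1 and Polr1c, and Mdm2 by Glipr1 (0.92), Fam49b and Safb2. Gdf15 was followed by Cstb (0.95), Fam214b and Efhd2, and Plk2 by Spdl1 (0.92), Ncapg2 and Dtx4. The leading gene for Ccng1 was Ntpcr (0.91) before Dmac1 and Srp9, and for Phlda3 it was Hsbp1 (0.97) before 2010320M18Rik and Smim26. Bax was led by Olfm1 (0.97), Nufip1 and Vps50, Eda2r by Arhgdig (0.93), En1 and Igdcc4, and Zmat3 by Lmf2 (0.91), A4galt and Taf4b.

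The first comparison was LNP-CRISPR against vehicle within each cell class, which asks whether delivery moved p53 and its targets. The members leaned up in some classes and down in others, by small amounts. In tenocyte-like and in myogenic-like cells 8 of 10 measured members were higher, with median log2 ratios of 0.21 and 0.10, whereas in FAP-like cells 8 of 10 were lower, with a median of -0.20. The myogenic-like count is of pooled ratios. It includes Bax, at 148 CPM in both libraries, and Cdkn1a, Ccng1 and Eda2r, which were lower within most myogenic-like clusters. Trp53 lay within 1.27-fold of vehicle in every class compared, and Mdm2, Cdkn1a and Plk2 were higher past 1.5-fold in at most 3 classes each. Only pericyte or smooth muscle-like cells held more than 1 such member, Mdm2 and Plk2, and each of these lost that place under 1 alternative. Phlda3 and Gdf15 were lower in FAP-like cells. Comparisons were made in the 8 classes with at least 50 cells in both libraries of a preparation, and a member with at least 20 UMIs over both was counted as measured. Of 36 measured member values in bulk classes 2 were higher and 2 lower by at least 1.5-fold, and of 32 in kit classes 4 were higher and 0 lower. Of all genes, 4.17% to 11.1% were higher and 6.18% to 11.8% lower past 1.5-fold in the bulk classes. In the kit classes 3.22% to 22.7% were higher and 4.78% to 10.3% lower.

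**Figure D2:**
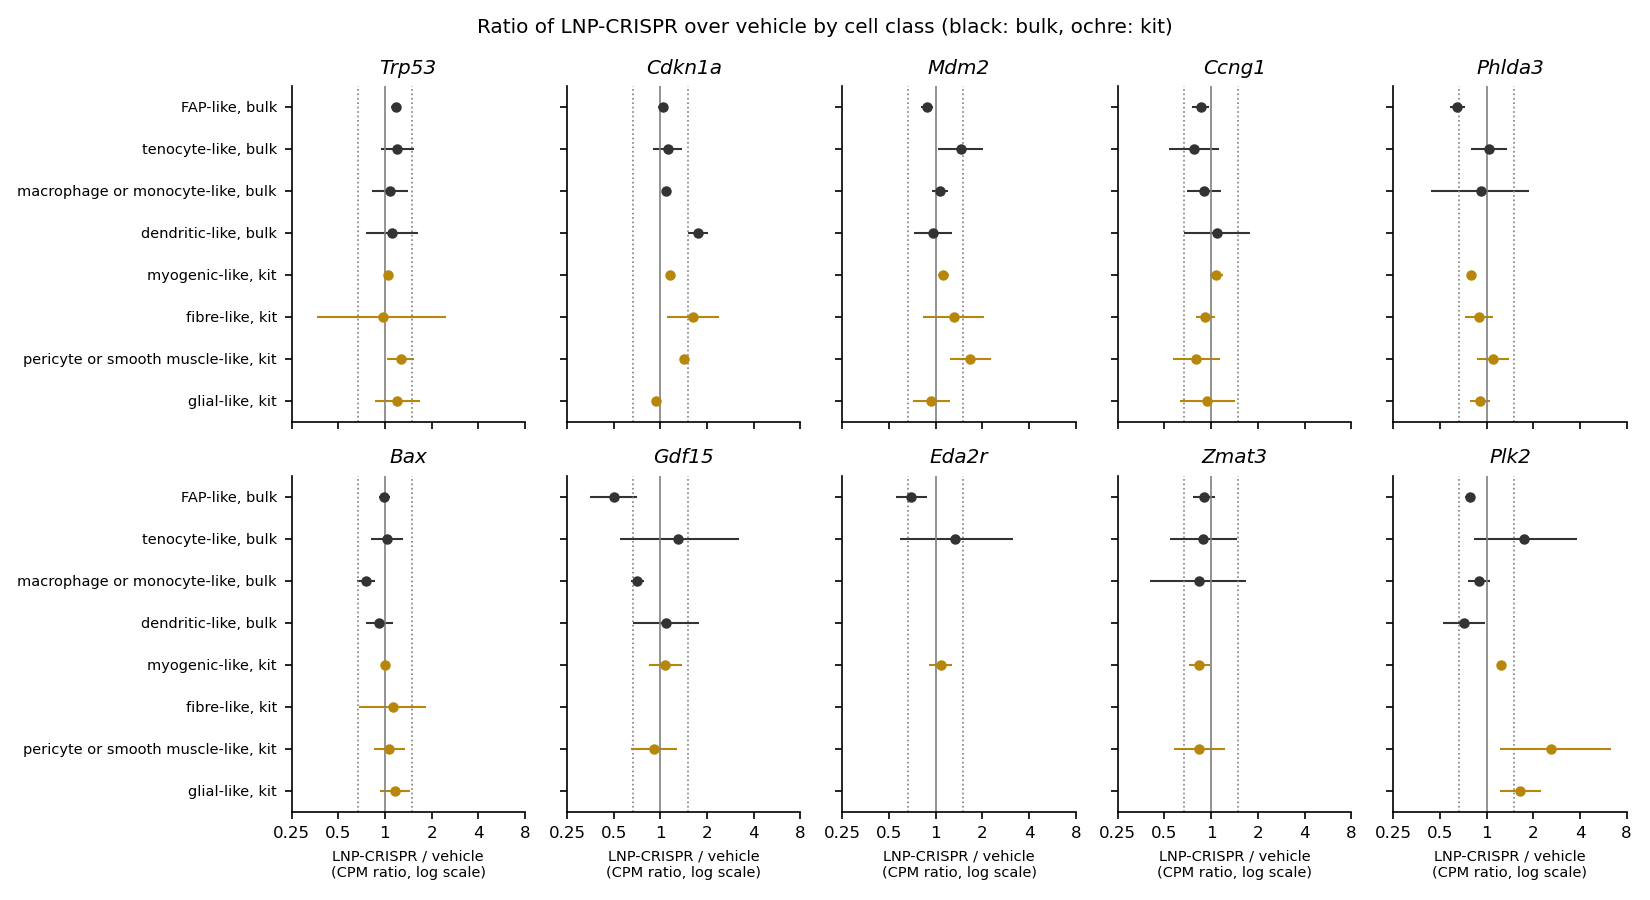
Ratio of CPM in LNP-CRISPR cells to CPM in vehicle cells (log axis) for each member, 1 panel a gene, by cell class, with 95% counting intervals. Bulk classes are black and kit classes ochre, the dotted lines mark 1.5-fold either way, and most points of Trp53, Bax, Ccng1 and Zmat3 lie between those lines.

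In FAP-like cells 0 of 10 measured members were higher and 2 were lower past 1.5-fold, where all 13695 measured genes gave 4.17% higher and 6.18% lower. Of the members 20% were higher at all, against 40.1% of all genes, and the members' median log2 ratio was -0.20, against -0.05. Phlda3 had 33.2 CPM in 440 LNP-CRISPR cells and 51.2 CPM in 664 vehicle cells (495 and 1147 UMIs), a ratio of 0.648 (0.582 to 0.72). Phlda3 was lower in each of the 3 FAP-like clusters. Cluster 1, led by Myoc and Gdf10, had 45.3 CPM in LNP-CRISPR cells and 80.1 CPM in vehicle cells, cluster 4, led by Cxcl5, had 22.5 and 29.3 CPM, and cluster 16, led by Ccn5, had 46.5 and 58.9 CPM. LNP-CRISPR cells held more of cluster 4, with 53.4% of FAP-like cells, against 42.2% in vehicle, and weighting both libraries to one cluster mix brought the Phlda3 ratio to 0.680. Gdf15 had 47 UMIs in LNP-CRISPR cells and 140 UMIs in vehicle cells, 3.15 and 6.25 CPM, a ratio of 0.504 (0.354 to 0.706). With equal weight to each cell that ratio was 0.965, so the size of the Gdf15 difference depends on how cells are weighted.

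Trp53 itself was 1.18-fold higher (1.09 to 1.27) in FAP-like cells, with 80.1 CPM in LNP-CRISPR and 68.1 CPM in vehicle. Cdkn1a had 104 CPM in LNP-CRISPR cells and 100 CPM in vehicle cells, and the interval of its ratio spanned 1 (0.97 to 1.1). That pooled ratio joins opposite directions, at 0.858 (0.755 to 0.974) in cluster 1, 0.979 (0.892 to 1.08) in cluster 4 and 1.42 (1.23 to 1.63) in cluster 16. In cluster 16 a single LNP-CRISPR cell held 109 of 423 Cdkn1a UMIs. Mdm2 had a ratio of 0.878, but 1 vehicle cell held 251 of its 1228 UMIs, and without the highest cell of each library the ratio was 1.09. Plk2 had 77.2 CPM in LNP-CRISPR cells and 98.3 CPM in vehicle cells, a ratio of 0.786 (0.731 to 0.844). The Plk2 difference lay in cluster 4, at 89.99 CPM in LNP-CRISPR cells and 145 CPM in vehicle cells, whereas cluster 16 had 92.7 and 73.2 CPM. The Bax ratio was 0.993, and Ccng1, Eda2r and Zmat3 had ratios of 0.858, 0.696 and 0.903. Red cell markers summed to 61.1 CPM in LNP-CRISPR FAP-like cells and 2.19 CPM in vehicle ones, and the part of free RNA in these ratios was not tested.

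In tenocyte-like cells, the fibroblasts of tendon, 1 of 10 measured members was higher past 1.5-fold and 0 were lower, beside 7.07% and 9.62% of all genes. Of the members 80% were higher at all, against 45.6% of all genes, and their median log2 ratio was 0.21, against -0.03. The member past 1.5-fold was Plk2, with 24 UMIs in 109 LNP-CRISPR cells and 12 in 81 vehicle cells, 9.83 and 5.67 CPM, and its interval of 0.834 to 3.81 spanned 1. Mdm2 had 41.0 CPM in LNP-CRISPR cells and 28.3 CPM in vehicle cells, a ratio of 1.45 (1.04 to 2.03), and was similarly placed in both tenocyte-like clusters at 1.47 and 1.41. Cdkn1a had 81.9 CPM in LNP-CRISPR cells and 73.2 CPM in vehicle cells, a ratio of 1.12 (0.903 to 1.39), and Trp53 had 68.8 and 57.1 CPM, a ratio of 1.20 (0.948 to 1.53). Phlda3 and Bax had ratios of 1.04 and 1.03, and Gdf15 and Eda2r, from at most 17 UMIs a group, had 1.30 and 1.34. The lower members were Ccng1 at 0.773 and Zmat3 at 0.892. Mdm2 was the one member here whose interval did not reach 1.

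In macrophage or monocyte-like cells 0 of 9 measured members passed 1.5-fold in either direction, beside 5.41% of all genes higher and 7.54% lower. Of the members 33.3% were higher at all, against 46.7% of all genes, and their median log2 ratio was -0.15, against -0.02. The secreted factor and the pore-former were both lower: Gdf15 had 269 CPM in 170 LNP-CRISPR cells and 379 CPM in 201 vehicle cells, a ratio of 0.709 (0.644 to 0.779). Bax had 145 CPM in LNP-CRISPR cells and 191 CPM in vehicle cells, a ratio of 0.758 (0.664 to 0.866). Bax was lower in both clusters of the class, at 0.745 in cluster 0, led by Chil3 and Arg1, and at 0.759 in cluster 8, led by Ms4a7 and C1qa. Gdf15 was also lower in both, with 120 CPM in LNP-CRISPR and 142 CPM in vehicle cells of cluster 0, and 600 and 808 CPM in cluster 8. In cluster 0 the interval of the Gdf15 ratio reached 1 (0.701 to 1.01). Single cells held 92 of 218 LNP-CRISPR and 116 of 263 vehicle UMIs of Gdf15 there. Cluster 8 held 25.9% of LNP-CRISPR and 35.8% of vehicle cells of the class, so the pooled Gdf15 ratio includes that difference in mix. Cdkn1a had 640 CPM in LNP-CRISPR cells and 586 CPM in vehicle cells, a ratio of 1.09 (1.02 to 1.17). Trp53 and Mdm2 had ratios of 1.08 and 1.06, and Ccng1, Phlda3, Zmat3 and pooled Plk2 had 0.901, 0.917, 0.830 and 0.894, all with intervals that reached 1. Eda2r had 0 UMIs in LNP-CRISPR cells and 2 in vehicle cells. Plk2 differed in opposite directions in the clusters, with 99.9 CPM in LNP-CRISPR and 70.1 CPM in vehicle cells of cluster 0, and 136 and 222 CPM in cluster 8. These and all other within-cluster values were computed after the pooled values had been seen.

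In dendritic-like cells, the antigen-presenting cells marked by Flt3 and Cd209a, 1 of 7 measured members was higher past 1.5-fold and 0 were lower, beside 11.1% and 11.8% of all genes. Their median log2 ratio was 0.12, against -0.04 for all genes, with 4 of 7 higher. Cdkn1a had 456 CPM in 69 LNP-CRISPR cells and 262 CPM in 59 vehicle cells (497 and 302 UMIs), a ratio of 1.74 (1.51 to 2.02). The highest cell held 28 Cdkn1a UMIs in LNP-CRISPR and 33 in vehicle, and the ratio stayed between 1.58 and 1.87 under all of its alternatives. Macrophage markers summed to 8291 CPM in LNP-CRISPR dendritic-like cells and 4188 CPM in vehicle ones, while macrophage or monocyte-like cells themselves had more Cdkn1a, at 640 CPM in LNP-CRISPR bulk. B cell markers summed to 438 and 189 CPM in the same cells, and the part of either in the Cdkn1a difference was not tested. Plk2 had 66.1 CPM in LNP-CRISPR cells and 91.9 CPM in vehicle cells, a ratio of 0.720 (0.526 to 0.98). Mdm2, Bax, Ccng1 and Gdf15 lay between 0.922 and 1.09, and Trp53 was at 1.12 (0.761 to 1.64). Phlda3, Zmat3 and Eda2r had at most 9 UMIs a group.

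In myogenic-like cells 0 of 10 measured members passed 1.5-fold in either direction, beside 3.22% of all genes higher and 4.86% lower. Of the members 80% were higher at all, against 46.1% of all genes, and their median log2 ratio was 0.10, against -0.02. With 607 LNP-CRISPR and 534 vehicle cells, its intervals were narrow. Trp53 had 149 CPM in LNP-CRISPR cells and 143 CPM in vehicle cells (3864 and 2785 UMIs), a ratio of 1.05 (0.998 to 1.1). Bax had 148 CPM in both, a ratio of 1.0 (0.953 to 1.05). Mdm2 had 56.8 CPM in LNP-CRISPR cells and 50.7 CPM in vehicle cells, a ratio of 1.12 (1.03 to 1.22). For Mdm2 and Bax these bounds lie well inside 1.5-fold, so a larger difference between these particular libraries is not hidden by counting error. Phlda3 had 67.8 CPM in LNP-CRISPR cells and 85.2 CPM in vehicle cells, a ratio of 0.796 (0.743 to 0.851), with the widest gap in cluster 20 at 73.6 and 132 CPM. Gdf15 had a ratio of 1.08, and Zmat3 had 0.840. Ccng1 and Eda2r had pooled ratios of 1.08 and 1.07, each carried by 1 cluster. Ccng1 was lower in 5 of 6 clusters, at ratios of 0.503 to 0.884, and higher in cluster 21 alone, at 107 CPM in LNP-CRISPR cells and 60.1 CPM in vehicle cells. Eda2r was lower in 4 of 6 clusters and stood highest in cluster 18, at 32.6 CPM in LNP-CRISPR cells and 21.3 CPM in vehicle cells.

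Cdkn1a in myogenic-like cells had 294 CPM in LNP-CRISPR cells and 255 CPM in vehicle cells (7603 and 4977 UMIs), a pooled ratio of 1.15 (1.11 to 1.2). Within clusters it was lower in 5 of 6. Cluster 21, led by the embryonic and neonatal myosin genes Myh3 and Myh8 of differentiating muscle, had 1108 CPM of Cdkn1a in LNP-CRISPR cells and 1153 CPM in vehicle cells. Cluster 18, led by the quiescent satellite cell genes Calcr and Pax7, had 153 and 158 CPM. The dividing clusters 17 and 19 had 161 and 157 CPM in LNP-CRISPR cells and 185 and 169 CPM in vehicle cells. Cluster 20, led by Esm1 and Hmga2, had 187 CPM in LNP-CRISPR cells and 218 CPM in vehicle cells, and cluster 22, the only one higher, had 378 and 368 CPM. Cluster 21 held 7.58% of LNP-CRISPR myogenic-like cells and 3.93% of vehicle ones, and 3753 of the 7603 LNP-CRISPR UMIs of Cdkn1a, against 1555 of 4977 in vehicle. Weighted to one cluster mix, the Cdkn1a ratio was 0.933, which turns its direction.

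**Figure D3:**
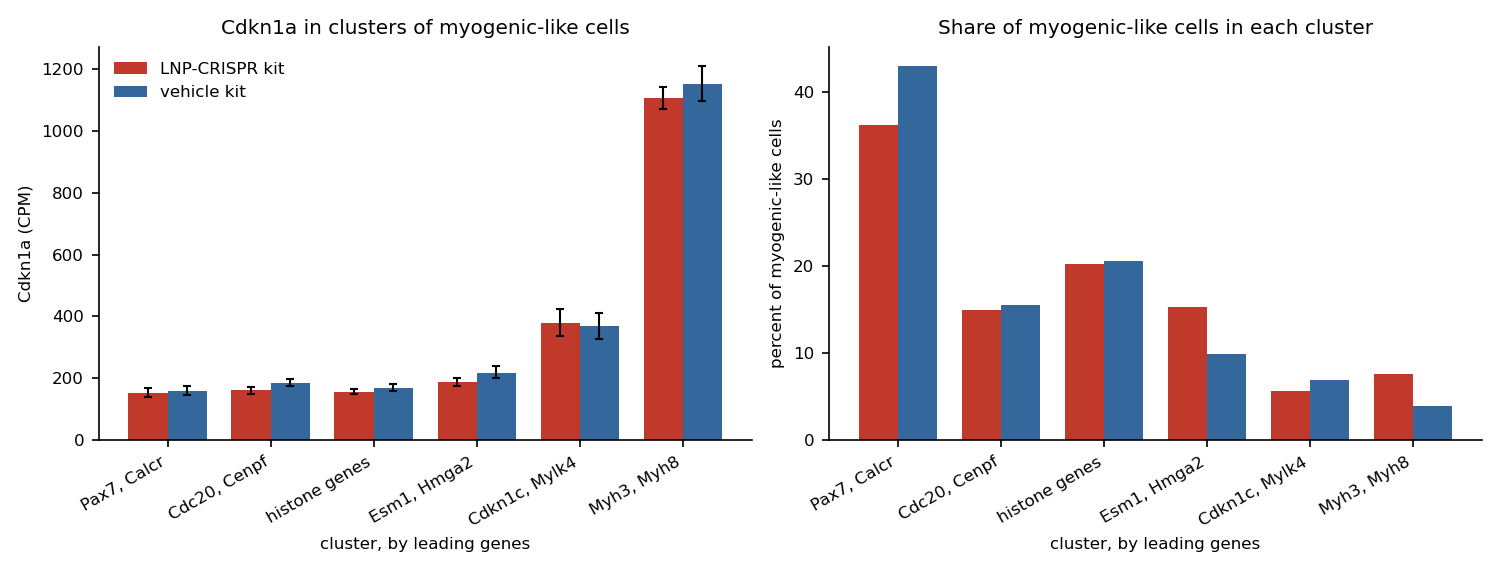
Cdkn1a level in CPM (left) and share of myogenic-like cells in percent (right) for each myogenic-like cluster, LNP-CRISPR kit beside vehicle kit. Cluster 21 stands far above the others in Cdkn1a, at 1108 CPM in LNP-CRISPR and 1153 CPM in vehicle cells, and holds 7.58% of LNP-CRISPR cells and 3.93% of vehicle cells.

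Plk2 differed in the other manner, since it was higher in 5 of the 6 myogenic-like clusters. It had 188 CPM in LNP-CRISPR cells and 152 CPM in vehicle cells (4849 and 2963 UMIs), a ratio of 1.24 (1.18 to 1.29), and 1.16 when weighted to one cluster mix. The cluster ratios were 1.24 in cluster 18, 1.35 in cluster 19, 1.17 in cluster 20, 1.07 in cluster 21, 1.97 in cluster 22 and 0.875 in cluster 17.

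In pericyte or smooth muscle-like cells, which wrap the vessels of muscle, 2 of 9 measured members were higher past 1.5-fold and 0 were lower, beside 5.47% and 10.3% of all genes. Of the members 66.7% were higher at all, against 41.1% of all genes, and their median log2 ratio was 0.13, against -0.07. Mdm2 had 41.3 CPM in 302 LNP-CRISPR cells and 24.7 CPM in 141 vehicle cells (225 and 57 UMIs), a ratio of 1.67 (1.24 to 2.27), which thinning to 2000 UMIs a cell brought to 1.39. Plk2 had 8.99 CPM in LNP-CRISPR cells and 3.47 CPM in vehicle cells, from 49 and 8 UMIs, a ratio of 2.59 (1.22 to 6.34), and clustering at resolution 2.0 brought it to 1.47. Cdkn1a had 830 CPM in LNP-CRISPR cells and 582 CPM in vehicle cells (4527 and 1343 UMIs), a ratio of 1.43 (1.34 to 1.52). Trp53 was also higher, at 73.6 CPM in LNP-CRISPR cells and 58.1 CPM in vehicle cells, a ratio of 1.27 (1.04 to 1.55). The smaller bulk libraries, which were not part of that comparison, held 23 LNP-CRISPR and 26 vehicle cells of this class. There Cdkn1a had 667 CPM in LNP-CRISPR cells and 447 CPM in vehicle cells, a ratio of 1.49 (1.23 to 1.81). Mdm2 had 19 UMIs in those LNP-CRISPR cells and 5 in the vehicle cells, a ratio of 3.90 (1.41 to 13.4). Trp53 had a ratio of 1.75, whose interval of 0.931 to 3.40 spanned 1. Plk2 had 1 and 4 UMIs there, too few to read a direction. Cdkn1a, Mdm2 and Trp53 thus lay on the same side in both preparations, although the bulk cells were fewer than the 50 required for a comparison. Ccng1 and Zmat3 were lower in both. Bax, Phlda3 and Gdf15 changed side, at 1.07, 1.10 and 0.910 in kit and 0.811, 0.840 and 1.03 in bulk, all with intervals that reached 1. In the kit libraries, fibre markers summed to 776 CPM in LNP-CRISPR pericyte or smooth muscle-like cells and 1384 CPM in vehicle ones, and mitochondrial UMIs were 8.73% and 9.86%, and their part in these ratios was not tested. Ccng1, Gdf15, Zmat3, Bax and Phlda3 lay between 0.798 and 1.10, and Eda2r had 2 UMIs in LNP-CRISPR cells and 0 in vehicle cells.

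In glial-like cells, which express the myelin gene Mbp, 1 of 7 measured members was higher past 1.5-fold and 0 were lower, beside 7.21% and 5.3% of all genes. Their median log2 ratio was -0.09, against 0.01 for all genes, with 3 of 7 higher. Plk2 had 67.0 CPM in 428 LNP-CRISPR cells and 40.8 CPM in 252 vehicle cells, a ratio of 1.64 (1.23 to 2.23), and with equal weight per cell the ratio was 1.09. Cdkn1a was slightly lower, with 1365 CPM in LNP-CRISPR cells and 1448 CPM in vehicle cells, a ratio of 0.943 (0.894 to 0.994). Trp53 and Bax had ratios of 1.20 and 1.16, and Mdm2, Ccng1 and Phlda3 had 0.938, 0.945 and 0.909, all with intervals that reached 1. Gdf15, Zmat3 and Eda2r had at most 6 UMIs a group. Fibre markers in these cells summed to 1524 CPM in LNP-CRISPR and 3060 CPM in vehicle.

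In fibre-like barcodes, whose UMIs come mostly from transcripts of mature fibres, 1 of 6 measured members was higher past 1.5-fold and 0 were lower. All genes gave 22.7% higher and 4.78% lower there, with a median log2 ratio of 0.20, so a single higher member was no more than the background. Cdkn1a had 61 UMIs in LNP-CRISPR barcodes and 53 in vehicle barcodes, 66.9 and 41.3 CPM, a ratio of 1.62 (1.1 to 2.38). The ratio was 2.0 in cluster 6 and 0.952 in cluster 7, and thinning to a common depth brought it to 0.565. Ccng1, the member most tied to this class, had 356 CPM in LNP-CRISPR barcodes and 389 CPM in vehicle barcodes, a ratio of 0.916 (0.794 to 1.06). Mdm2, Bax, Phlda3 and Trp53 had ratios of 1.31, 1.12, 0.891 and 0.974, all with intervals that reached 1. Plk2 had 15 and 4 UMIs, Eda2r 6 and 4, and Zmat3 6 and 5, in LNP-CRISPR and vehicle barcodes.

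Summed over all kept cells, Cdkn1a had 209 CPM in LNP-CRISPR bulk and 173 CPM in vehicle bulk, a ratio of 1.20 (1.16 to 1.25), and 454 and 340 CPM in the kit libraries, a ratio of 1.34 (1.3 to 1.37). In such a sum more cells of a class and more RNA per cell cannot be told apart. LNP-CRISPR kit held 302 pericyte or smooth muscle-like and 428 glial-like cells, the classes with the most Cdkn1a, and vehicle kit held 141 and 252.

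The second comparison used the Cas9 transcript itself. Within each LNP-CRISPR library, cells of a class with at least 4 Cas9 UMIs (Cas9-rich) were set against cells with 0 (Cas9-free), with cells of 1 to 3 UMIs between them and vehicle cells as a baseline. Both kinds of cell came from the same library, so handling and sequencing were shared. Cells with more UMIs can show more Cas9 by depth alone, and a Cas9-free cell may have taken up particles whose RNA was not captured. In macrophage or monocyte-like cells Gdf15 and Plk2 were higher in Cas9-rich cells, whereas Cdkn1a, Mdm2, Bax and Trp53 were not higher past 1.5-fold in any of the 4 classes compared. Trp53 ratios were all at or below 1, from 0.873 to 0.999.

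**Figure D4:**
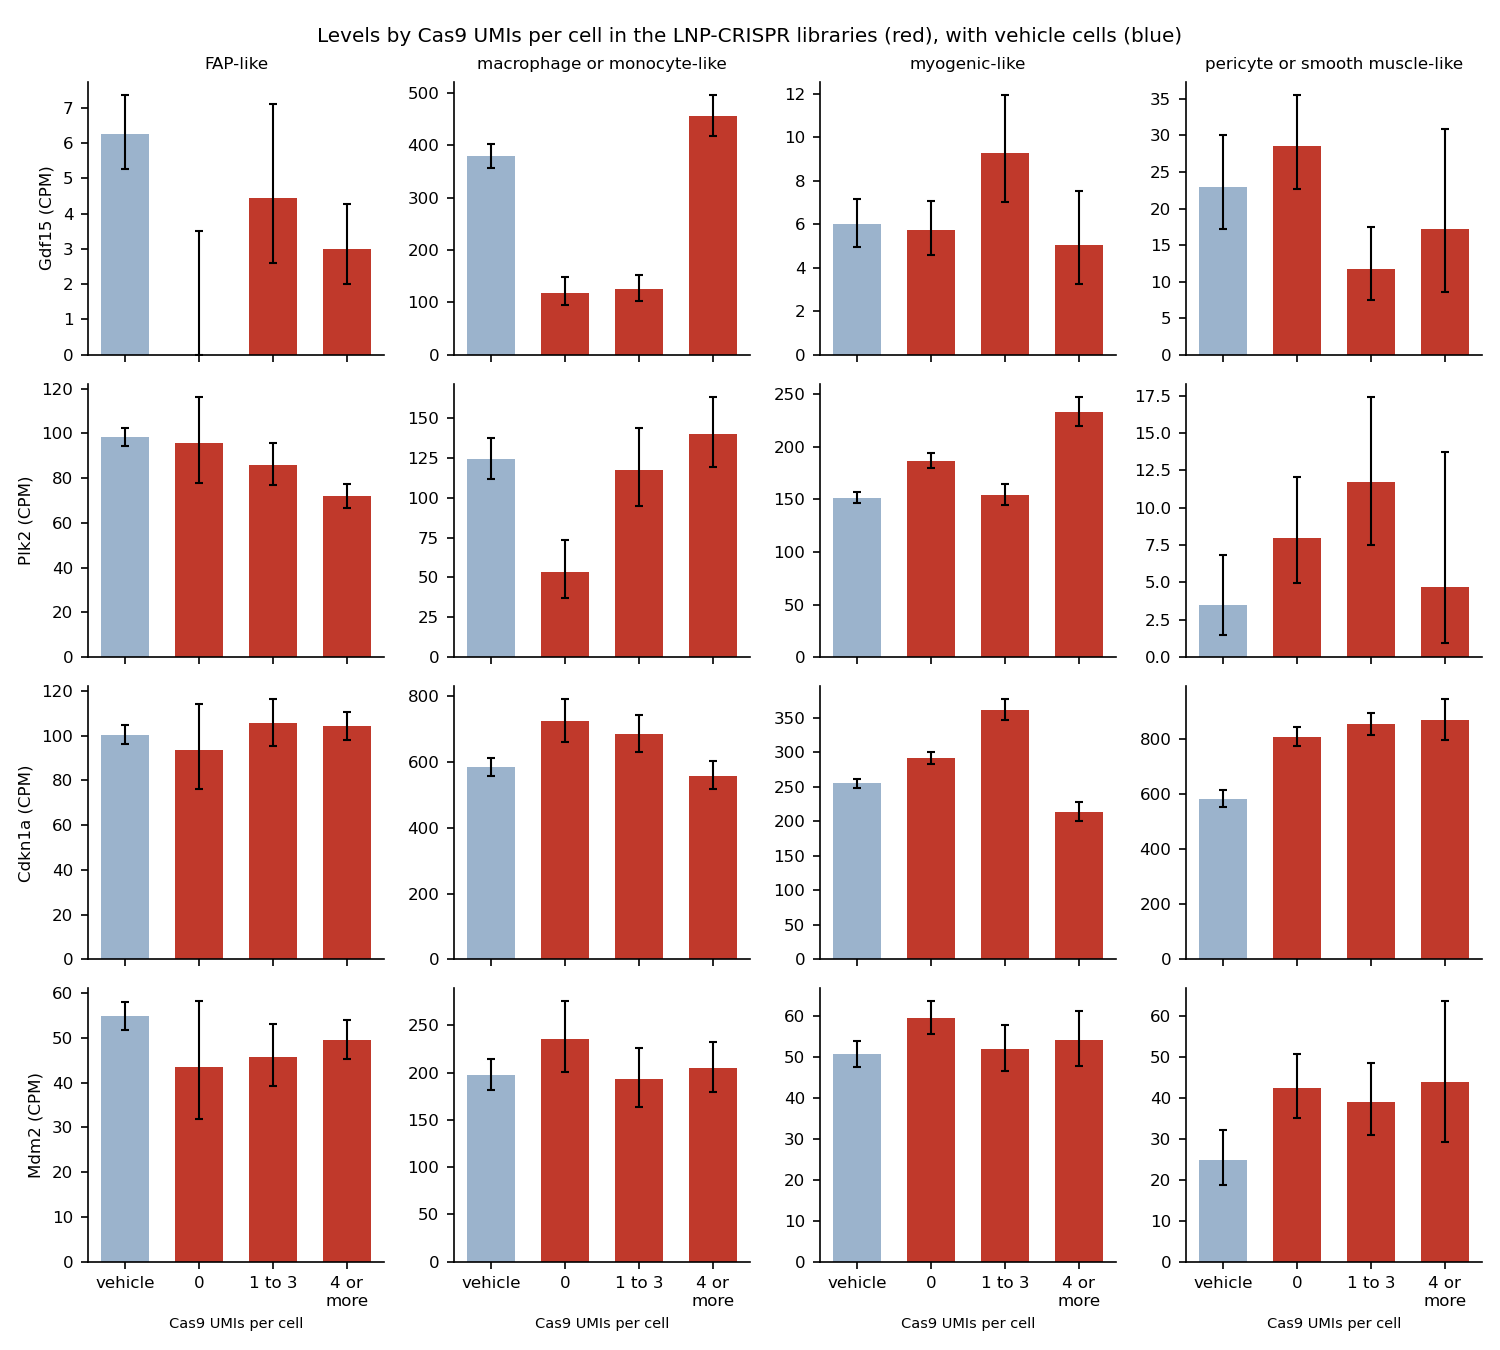
Level in CPM of Gdf15, Plk2, Cdkn1a and Mdm2 (rows) in 4 cell classes (columns) by Cas9 UMIs per cell, in the order vehicle, 0, 1 to 3, and 4 or more, with 95% Poisson intervals. Gdf15 in macrophage or monocyte-like cells stands at 379, 119, 125 and 456 CPM along that order, while the Cdkn1a and Mdm2 bars show no climb in common across classes.

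Gdf15 in macrophage or monocyte-like cells had 530 UMIs in 69 Cas9-rich cells and 80 UMIs in 48 Cas9-free cells, 456 and 119 CPM, a ratio of 3.85 (3.04 to 4.93). Cells with a Gdf15 UMI were 32 of 69 Cas9-rich and 5 of 48 Cas9-free cells, 46.4% and 10.4%, at median depths of 16497 and 14320 UMIs. T or NK-like cells of the same library, which should lack it, held a Gdf15 UMI in 2 of 50 cells (4%) at a median of 8300.5 UMIs. A single Cas9-free cell held 69 of the 80 UMIs, and the ratio without the highest cell of each group was 21.9. Over the pooled class the vehicle level of 379 CPM lay near that of the Cas9-rich cells. The Cas9-free and sparsely marked cells, at 119 and 125 CPM, stood below both. The groups also differed in kind of macrophage. Of Cas9-rich cells 55.1% were in cluster 0 and 44.9% in cluster 8, against 91.7% and 8.33% of Cas9-free cells. Of vehicle cells 35.8% were in cluster 8, the cluster with the more Gdf15. Within cluster 0, Gdf15 had 242 CPM in 38 Cas9-rich cells and 114 CPM in 44 Cas9-free cells, with a UMI in 10 and 3 cells. Vehicle cells of cluster 0 had 142 CPM, so there the Cas9-free cells lay nearer vehicle than the Cas9-rich cells did. Single cells held 92 of the 131 Cas9-rich UMIs and 69 of the 75 Cas9-free UMIs of that cluster. Weighting to one cluster mix gave a ratio of 2.11. Dendritic markers summed to 946 CPM in Cas9-rich cells and 104 CPM in Cas9-free cells, and neutrophil markers to 257 and 731 CPM, and their part in these ratios was not tested.

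Plk2 in the same cells had 140 CPM in Cas9-rich cells and 53.3 CPM in Cas9-free cells (163 and 36 UMIs), a ratio of 2.63 (1.82 to 3.89). Here the bins ran 124 CPM in vehicle, 53.3 CPM at 0, 118 CPM at 1 to 3 and 140 CPM at 4 or more. Cluster 0 alone had 184 CPM in Cas9-rich cells and 48.7 CPM in Cas9-free cells. With Gdf15, this made 2 of 7 measured members higher past 1.5-fold and 0 lower in macrophage or monocyte-like cells, beside 19% and 14.1% of all genes, and the members' median log2 ratio was -0.17. Cdkn1a had 560 CPM in Cas9-rich cells and 725 CPM in Cas9-free cells, a ratio of 0.772 (0.686 to 0.87), and 0.959 within cluster 0. Mdm2 had a pooled ratio of 0.869 and a ratio of 1.40 (1.12 to 1.76) within cluster 0. Trp53, Bax and Ccng1 had ratios of 0.892, 0.864 and 1.06. Phlda3 had 13 and 3 UMIs, Zmat3 9 and 5, and Eda2r 0 in both.

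In FAP-like cells, of which 295 were Cas9-rich and 44 Cas9-free, 1 of 10 measured members was higher past 1.5-fold and 0 were lower, beside 11.2% and 13.7% of all genes. That member was Gdf15, with 30 UMIs in Cas9-rich cells and 0 in Cas9-free cells, and it passed 1.5-fold only through the pseudocount of 0.5 UMI. Against a floor of 3 counts over the Cas9-free cells it was at least 1.05-fold higher, so the counts themselves do not place it past 1.5-fold. Its vehicle level of 6.25 CPM was above the 2.99 CPM of Cas9-rich cells. Cdkn1a had 104 CPM in Cas9-rich cells and 93.8 CPM in Cas9-free cells, a ratio of 1.11 (0.904 to 1.38). Along the order vehicle, 0, 1 to 3 and 4 or more, Cdkn1a had 100, 93.8, 106 and 104 CPM and Mdm2 had 54.8, 43.6, 45.7 and 49.5 CPM, so neither left a narrow range. Trp53 had 68.1, 90.02, 81.5 and 78.6 CPM in that order, with all 3 LNP-CRISPR bins above vehicle. Phlda3 had 51.2, 31.3, 48.3 and 27.6 CPM, with no run in 1 direction. Plk2 had 71.9 CPM in Cas9-rich cells and 95.7 CPM in Cas9-free cells, a ratio of 0.751 (0.609 to 0.935), but 1 Cas9-free cell held 31 of 101 UMIs, and without the highest cells the ratio was 0.985. Bax had 61.7 CPM in Cas9-rich cells and 78.6 CPM in Cas9-free cells, a ratio of 0.784 (0.623 to 0.998). Ccng1, Zmat3 and Eda2r had ratios of 0.897, 0.754 and 1.26, with intervals that reached 1. The Cas9-rich FAP-like cells were deeper, with median UMIs of 29593 against 22439, and 56.9% of them were in cluster 4 whereas 54.5% of Cas9-free cells were in cluster 1.

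In myogenic-like cells, with 94 Cas9-rich and 372 Cas9-free cells, 0 of 10 measured members passed 1.5-fold in either direction, beside 3.69% of all genes higher and 10.4% lower. Trp53 had 149 CPM in both, a ratio of 0.999 (0.916 to 1.09). Mdm2 and Bax had ratios of 0.911 (0.79 to 1.05) and 1.02 (0.932 to 1.11). Of the members 2 of 10 were higher and 8 lower, with a median log2 ratio of -0.14, against -0.02 for all genes. Ccng1 had a ratio of 0.821 (0.674 to 0.994), and Phlda3, Gdf15, Eda2r and Zmat3 lay between 0.845 and 0.946 with intervals that reached 1. Cdkn1a was lower, with 214 CPM in Cas9-rich cells and 291 CPM in Cas9-free cells (1012 and 4325 UMIs), a ratio of 0.734 (0.685 to 0.786). It was lower within the dividing cluster 19, at 136 and 160 CPM, and within cluster 20, at 123 and 171 CPM. The intermediate cells broke this order, with 362 CPM of Cdkn1a at 1 to 3 Cas9 UMIs, and with at least 1 Cas9 UMI as the limit the ratio was 1.02. Plk2 had 234 CPM in Cas9-rich cells and 187 CPM in Cas9-free cells, a ratio of 1.25 (1.16 to 1.34). Within clusters 19 and 20, Plk2 had ratios of 1.27 and 0.871, Ccng1 0.556 and 1.58, Zmat3 0.568 and 1.95, and Phlda3 0.769 and 1.33. None of these intervals reached 1, so the pooled ratios of these members join opposite directions. Trp53, Mdm2, Bax, Gdf15 and Eda2r had intervals that reached 1 in both clusters. Median depths were far apart, at 45451.5 UMIs in Cas9-rich cells and 22895 in Cas9-free cells. The quiescent cluster 18 held 17.02% of Cas9-rich cells and 41.7% of Cas9-free cells.

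In pericyte or smooth muscle-like cells 1 of 9 measured members was higher past 1.5-fold and 1 was lower, beside 10.6% and 11.6% of all genes. Phlda3 had 69.0 CPM in 31 Cas9-rich cells and 44.8 CPM in 162 Cas9-free cells (44 and 124 UMIs), a ratio of 1.54 (1.07 to 2.19). It fell short of 1.5-fold under 5 of 9 alternatives, and thinning to a common depth brought it to 0.916. Gdf15 had 11 UMIs in Cas9-rich cells and 79 in Cas9-free cells, a ratio of 0.604 whose interval of 0.29 to 1.14 spanned 1. Bax and Zmat3 had ratios of 1.42 and 1.33, and Trp53, Ccng1 and Plk2 had 0.986, 0.900 and 0.591, all with intervals that reached 1. Eda2r had 0 and 1 UMIs. Cdkn1a and Mdm2, which were higher in LNP-CRISPR than in vehicle cells of this class, differed less between the Cas9 bins. Cdkn1a had 582 CPM in vehicle cells and 806, 852 and 867 CPM at 0, 1 to 3 and 4 or more Cas9 UMIs, and Mdm2 had 24.7, 42.3, 39.0 and 43.9 CPM in that order. Cas9-rich over Cas9-free ratios were 1.08 (0.979 to 1.18) for Cdkn1a and 1.04 (0.661 to 1.58) for Mdm2. The larger difference of both lay between vehicle and LNP-CRISPR cells of the class, the Cas9-free ones included. The bins cannot tell Cas9 from delivery or library, because a Cas9-free cell may have taken up particles and each treatment is 1 library.

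The wider p53 programme was read from a list of 35 other textbook targets. In FAP-like cells 34 were measured, and 1 was higher and 1 lower past 1.5-fold, beside 4.17% and 6.18% of all genes. Their median log2 ratio was -0.11 for LNP-CRISPR over vehicle. In myogenic-like cells all 35 were measured, of which 2 were higher and 1 lower past 1.5-fold, beside 3.22% and 4.86% of all genes. The median there was -0.05. Medians in the other classes ran from -0.16 in macrophage or monocyte-like cells, where 1 was higher and 6 were lower past 1.5-fold of 24 (25% lower, against 7.54% of all genes), to 0.21 in fibre-like barcodes, where the median of all genes was 0.20. Rps27l, a ribosomal protein gene with the most UMIs of the list, had 277 CPM in LNP-CRISPR and 280 CPM in vehicle FAP-like cells and 717 and 736 CPM in myogenic-like cells. Btg2, an antiproliferative gene that is also an immediate early gene, had 97.2 CPM in LNP-CRISPR and 137 CPM in vehicle myogenic-like cells, a ratio of 0.710. Gadd45a, a stress-induced growth arrest gene, was 1.95-fold higher in macrophage or monocyte-like cells, at 67.7 CPM in LNP-CRISPR and 34.7 CPM in vehicle, and had ratios of 1.09 in FAP-like and 0.850 in myogenic-like cells. Between Cas9-rich and Cas9-free cells the list had medians of -0.14 in FAP-like, 0.06 in macrophage or monocyte-like, -0.24 in myogenic-like and 0.04 in pericyte or smooth muscle-like cells. Btg2 again had a low ratio there in myogenic-like cells, at 49.6 CPM in Cas9-rich and 102 CPM in Cas9-free cells.

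**Figure D5:**
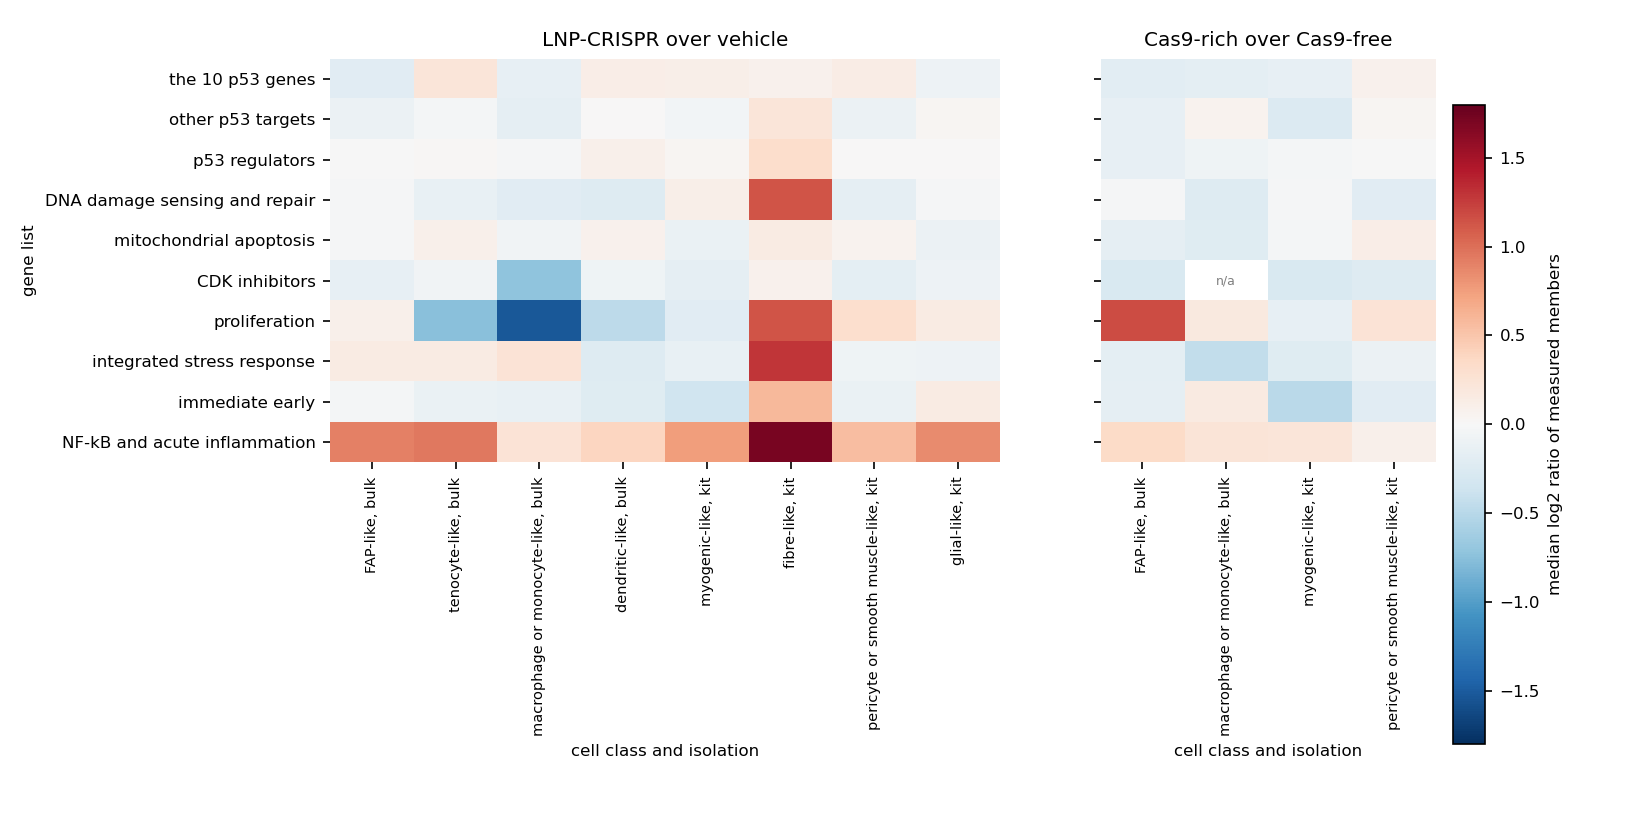
Heat map of the median log2 ratio of each gene list (rows) in each comparison (columns), marked n/a where fewer than 3 members were measured. For LNP-CRISPR over vehicle, the p53 members and the other p53 targets stand at -0.20 and -0.11 in FAP-like cells and at 0.10 and -0.05 in myogenic-like cells. The NF-kB and acute inflammation list stands at 0.91 in FAP-like and 0.75 in myogenic-like cells.

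The lists of genes that act on or beside p53 had medians between -0.16 and 0.11 in FAP-like and myogenic-like cells. The p53 regulators had medians of -0.01 in FAP-like and 0.03 in myogenic-like cells for LNP-CRISPR over vehicle, and the ribosomal protein genes Rpl5 and Rpl11, whose free proteins inhibit Mdm2, had ratios of 1.0 and 0.956 in FAP-like cells. Usp7, which removes ubiquitin from p53 and Mdm2, had 1.02 there. DNA damage sensing and repair genes had medians of -0.02 in FAP-like cells, with 0 of 20 past 1.5-fold, and 0.11 in myogenic-like cells, with 16 of 20 higher, against 46.1% of all genes, and 0 past 1.5-fold. Parp1, a sensor of DNA breaks, had 97.5 CPM in LNP-CRISPR and 91.6 CPM in vehicle myogenic-like cells, Rif1, which guides break repair, had 82.8 and 68.2 CPM, and H2afx, the histone variant phosphorylated at breaks, had 67.1 and 81.1 CPM. Mitochondrial apoptosis genes, the partners of Bax, had medians of -0.02 in FAP-like and -0.12 in myogenic-like cells, with Mcl1 at 0.907 and 0.881 and Cycs at 1.09 and 0.918. The other CDK inhibitors, relatives of Cdkn1a in function, had medians of -0.15 in FAP-like and -0.16 in myogenic-like cells. Of these 6 genes 1 was higher in each class, against 40.1% and 46.1% of all genes. Of them Cdkn1c was lower in FAP-like cells, with 128 CPM in LNP-CRISPR and 205 CPM in vehicle, and Cdkn1b and Cdkn2d had ratios of 0.792 and 0.896.

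Lists outside the pathway were read beside these values. They too were chosen with earlier results of these data known, so they are not an independent scale. The NF-kB and acute inflammation list had 24 of 25 measured genes higher in LNP-CRISPR FAP-like cells, 17 of them past 1.5-fold, with a median log2 ratio of 0.91, where 40.1% of all genes were higher and 4.17% past 1.5-fold. In myogenic-like cells 20 of 22 were higher and 13 past 1.5-fold, with a median of 0.75, where 46.1% of all genes were higher and 3.22% past 1.5-fold. Cxcl1, a neutrophil-attracting chemokine, had 747 CPM in LNP-CRISPR and 298 CPM in vehicle myogenic-like cells, Nfkbia, the inhibitor induced by NF-kB, had 862 and 442 CPM, and Ccl2, a monocyte-attracting chemokine, had 98.9 and 30.9 CPM. Immediate early genes had a median of -0.35 in myogenic-like cells, with Fos at 275 CPM in LNP-CRISPR and 408 CPM in vehicle, Jun at 810 and 1012 CPM and Junb at 504 and 493 CPM. Integrated stress response genes, which can raise Gdf15 without p53, had medians of 0.14 in FAP-like and -0.13 in myogenic-like cells for LNP-CRISPR over vehicle. Between Cas9-rich and Cas9-free macrophage or monocyte-like cells 2 of 8 measured were higher, against 50.6% of all genes, with a median of -0.45. Their part in the Gdf15 ratio of those cells, whose cluster mix also differed, was not tested. In those last cells Atf4 had 288 CPM in Cas9-rich and 332 CPM in Cas9-free cells, Atf3 had 471 and 366 CPM, and Ppp1r15a had 195 and 184 CPM. Proliferation genes, which p21 holds down, had a median of -0.20 in myogenic-like cells for LNP-CRISPR over vehicle, with Top2a, Mki67 and Pcna at ratios of 0.954, 1.06 and 1.10. In macrophage or monocyte-like cells they had a median of -1.52, with 9 of 13 lower past 1.5-fold, against 7.54% of all genes. The CDK inhibitors had -0.72 there, with 3 of 4 lower past 1.5-fold, while Cdkn1a in the same cells had the ratio of 1.09 given above. Between Cas9-rich and Cas9-free FAP-like cells the proliferation genes had a median of 1.17, with Top2a at 117 and 30.3 CPM and Mki67 at 115 and 31.3 CPM. Cdkn1a there had the ratio of 1.11 given above.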

How the data were processed

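The authors deposited 1 matrix of raw UMI counts per gene and barcode for each of 4 libraries (10x Chromium 3′ v3.1, per the labels' protocols). Cell Ranger 7.0.1 and mm10 are named by the submitters' processing notes, but cellranger 5.0.1 by the matrix headers. Of 6512 barcodes, 838 had fewer than 200 genes or over 20% of UMIs from mitochondrial genes and were left out. Scrublet in scanpy 1.11.5 (expected rate 0.05) called 23 doublets, under 0.5% of each library, so doublets were treated as largely still present. Kept cells were clustered together (Leiden, resolution 1.0, 2000 variable genes, 30 components, 15 neighbours, without Cas9), giving 23 clusters, of which 1 stayed unnamed. Ccng1 and Gdf15 were among the variable genes.

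Levels are CPM with Poisson intervals, and ratios have conditional binomial intervals. Past the fold means at least 1.5-fold with at least 20 UMIs over both groups, on log2 ratios with a pseudocount of 0.5 UMI. The ratio step was checked on simulated data. Sites were searched on both strands with the p53 half-site consensus. The members and lists were chosen with earlier results of these data known. The text names all 10 members in every comparison, the 3 most abundant genes of each other list and the 3 genes most like each member, and shows sequences for members with a half-site match. Of the genes named by this rule, 1 is not reported here. Alternatives were a stricter filter, called doublets kept, resolution 2.0, equal weight per cell, leaving out the highest cell, thinning to 2000 UMIs, one cluster mix and other Cas9 limits (1, 10, or 200 per 1000000 UMIs).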

Additional observations from a re-analysis of the deposited data

Results flagged for a closer look

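For 3 members the ratio lay below 1 in at least 1 cell class and above 1 in others, each with an interval that did not reach 1, and the difference between classes was not tested in any of them. LNP-CRISPR over vehicle, Mdm2 was 0.878 in FAP-like cells, against 1.45 in tenocyte-like, 1.12 in myogenic-like and 1.67 in pericyte or smooth muscle-like cells, and the FAP-like value rests on 1 vehicle cell with 251 UMIs. Plk2 was 0.786 in FAP-like and 0.720 in dendritic-like cells, against 1.24 in myogenic-like, 2.59 in pericyte or smooth muscle-like and 1.64 in glial-like cells. The glial-like value was 1.09 with equal weight per cell. Cdkn1a was 0.943 in glial-like cells, against 1.09 in macrophage or monocyte-like, 1.74 in dendritic-like, 1.15 in myogenic-like, 1.62 in fibre-like and 1.43 in pericyte or smooth muscle-like cells. The myogenic-like value turned direction when weighted to one cluster mix, and the fibre-like value was 0.565 when thinned. Between Cas9-rich and Cas9-free cells, Plk2 was 0.751 in FAP-like cells, against 2.63 in macrophage or monocyte-like and 1.25 in myogenic-like cells. That FAP-like value rests largely on 1 Cas9-free cell, and leaving out the highest cells brought it close to 1.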

How the results depend on the processing

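No paired analysis was possible because each group is 1 library and the labels give no replicate numbers. For the same reason nothing here speaks to differences between animals. The 12 pairs of member and library whose top class stood at least 2-fold above the next numbered 10 (equal weight per cell) to 14 (thinned) under the alternatives. Counts of members past 1.5-fold moved more. In bulk classes the 2 higher became 1 with called doublets kept or cells thinned to 2000 UMIs and 5 with equal weight per cell, and the 2 lower became 6 with equal weight and 1 with thinning or one cluster mix. In kit classes the 4 higher became 2 with equal weight or thinning, and the 0 lower became 1 and 3. Between Cas9-rich and Cas9-free bulk cells the 3 higher became 5 with at least 1 Cas9 UMI, and the 0 lower became 2 with equal weight, thinning or at least 10 Cas9 UMIs, and 1 with at least 1 Cas9 UMI or at least 200 per 1000000. Between Cas9-rich and Cas9-free kit cells the 1 higher became 0 with the stricter filter, doublets kept, the highest cell left out or at least 10 Cas9 UMIs, 4 with equal weight, and 2 with thinning, at least 1 or at least 200 per 1000000. The 1 lower there became 2 with the stricter filter, resolution 2.0, the highest cell left out, at least 10, at least 200 per 1000000 or one cluster mix, 3 with doublets kept or at least 1 Cas9 UMI, and 0 with equal weight or thinning. Single values turned direction with thinning for Cdkn1a in fibre-like barcodes (0.565, LNP-CRISPR over vehicle) and Phlda3 in pericyte or smooth muscle-like cells (0.916, Cas9-rich over Cas9-free), and the cause was not tested. The ratios of Cdkn1a in dendritic-like cells (1.58 to 1.87), Gdf15 (2.11 to 78.7) and Plk2 (2.43 to 8.88) in Cas9-rich macrophage or monocyte-like cells and Plk2 in tenocyte-like cells (1.61 to 2.34) passed 1.5-fold under every alternative run for them. Eda2r and Zmat3 were measured from few UMIs in most classes, so only large differences could have been seen.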

Other observations

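Cells of 1 library often carried an outsized part of a member's UMIs. In LNP-CRISPR bulk, 1 of 37 myogenic-like cells held 28 of the 63 Ccng1 UMIs of the class. In vehicle kit, 1 of 24 tenocyte-like cells held 15 of 38 Cdkn1a UMIs, and 1 of 22 endothelial-like cells held 22 of 56. Over pairs of cluster and preparation in which a member was measured, Trp53 was higher in LNP-CRISPR than in vehicle cells in 17 of 19 pairs, Mdm2 in 11 of 22, Cdkn1a in 10 of 24, Plk2 in 12 of 16 and Ccng1 in 5 of 20. Bax was higher in 8 of 21 pairs, Phlda3 in 3 of 19, Eda2r in 2 of 9, Zmat3 in 3 of 13 and Gdf15 in 5 of 11. Clusters of 1 preparation share the same pair of libraries, so these pairs are not independent. The share of all genes higher over such pairs was not computed. Within whole classes it ran from 40.1% in FAP-like cells to 68.3% in fibre-like barcodes. The Trp53 interval lay above 1 only in FAP-like cluster 4, myogenic-like clusters 19 and 20 and the kit cells of pericyte or smooth muscle-like cluster 14.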
